A study of Homo sapiens with 48 samples.

Results

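The first 24 hours of IRE1 knockdown were examined in 12 of the 48 RNA-seq libraries of a time course in AMO1 cells, a human multiple myeloma (plasmacytoma) line. The members were chosen by their labels alone. They are the libraries titled shIRE1 clone 1 and shIRE1 clone 3 at 0 h and at 24 h of doxycycline (Dox), with 3 replicates in each of the 4 groups. The 24 h cells of a clone were set against the 0 h cells of that clone. Both are single-cell clones of AMO1 that carry Dox-inducible short hairpin RNAs (shRNAs) against the IRE1 transcript, 3 shRNAs together according to the genotype label (sh7, sh8 and sh9). The cells at 0 h were the same clones without Dox, and those at 24 h had received Dox at 0.2 µg/ml. The rest of the series holds the same clones at 48 and 72 h, and the shXBP1 clones 1 and 18 at all 4 times. No non-targeting shRNA is among the 16 groups, so an effect of Dox itself or of making any shRNA is part of every change given here, and the shXBP1 clones were the only other cells that received Dox.

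IRE1, encoded by ERN1, is a kinase and endoribonuclease in the membrane of the endoplasmic reticulum (ER). When unfolded proteins build up, it cuts the XBP1 transcript, whose religated form encodes XBP1s, a transcription factor that raises genes for protein import, folding, glycosylation and secretion, and it also degrades a set of other transcripts. Plasma cells and myeloma cells secrete immunoglobulin and carry a heavy load of such protein, and they depend on the transcription factor IRF4.

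The 12 libraries held between 23300589 and 40347288 counts over 58302 genes, so that a single count was worth 0.0429 CPM (counts scaled to the library total) or less. Levels below are CPM scaled by edgeR's trimmed mean of M-values (TMM), and changes are log2 fold changes of 24 h against 0 h with their standard error (SE), tested by edgeR's quasi-likelihood F test with Benjamini-Hochberg adjustment over all genes of the fit. A gene is said to rise or fall where its adjusted p was under 0.05. The replicates were separate flasks of 1 clone, so the tests measure the spread between cultures of a clone and not between independent clones. The 10 plasma cell markers summed to 15386 to 17180 CPM in clone 1 and 18378 to 20100 CPM in clone 3 at 0 h, and to 12239 to 12758 and 13088 to 13868 CPM at 24 h. The myeloid markers summed to 0.918 CPM at most, the red cell markers to 0.147 CPM at most, with 3 of 8 and 2 of 5 of them at 0 in every library. Epithelial markers summed to at most 2.68 CPM, and fibroblast and endothelial markers to at most 2.18 CPM.

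A limit of the clone 3 comparison, and of a shXBP1 group, has to be given first. When the libraries of the series were ordered by the number in their labels, 45 of 13453 genes lay entirely apart between libraries 1 to 16 and all later ones, against 2 and 1 genes at the neighbouring boundaries. That boundary runs through a group: clone 3 at 24 h has replicate 1 before it and replicates 2 and 3 after it, while all clone 3 libraries at 0 h lie before it and clone 1 lies wholly on its near side. The labels name no batch, and several of the 45 genes have near-identical copies in the genome (EEF1A1 and NPM1 among them). Some other boundaries inside groups parted similar or larger numbers, such as 41 genes after library 4, inside clone 1 at 24 h, and 237 after library 47. Most parted fewer, and the boundary after library 16 was picked once all these counts had been seen. Replicate 1 of clone 3 at 24 h had a mean correlation across 13432 genes of 0.9939 with its own group and 0.9963 with clone 1 at 24 h. Few genes could place this library with either clone. At 0, 48 and 72 h, 3 genes separated the clones by at least 1 on the log2 scale and 0 genes by at least 1.5. BTK stood at 28.9 CPM in it, at 31.7 and 28.4 CPM in replicates 2 and 3, and at 8.53 to 9.88 CPM in clone 1 at 24 h. On a scale from 0 (clone 3 at 0 h) to 1 (clone 1 at 0 h) over the 4 genes furthest apart at 0 h, it lay at 0.476, replicates 2 and 3 at 0.448 and 0.432, and clone 1 at 24 h at 0.678 to 0.709. EGR1, INHBE and DDIT4 among these genes moved in opposite directions in the clones by 24 h. The scale rests on these 4 genes. On it, as for BTK, the library lay nearer to replicates 2 and 3 than to clone 1 at 24 h. Its mean correlation was higher with clone 1 at 24 h, and which clone it came from was not tested. A second boundary inside a group, after library 40, parted 34 genes and ran through shXBP1 clone 18 at 24 h, so values of that group may carry a like step. In the comparison of shIRE1 with shXBP1, the fit with the step term also held a term for this second boundary. In that fit the 24 h change of shXBP1 clone 18 rests on its replicate 1. The changes given for a single shXBP1 clone carry no such term. Many of the counts that rest on clone 3 are therefore given a second time with a term for the step after library 16 in the model. In that model the 24 h change of clone 3 rests on replicate 1 alone. Counts given once are from the model without the term.

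ERN1 fell in both clones, by very different amounts. In clone 1 it stood at 153, 150 and 154 CPM at 0 h and at 127, 125 and 129 CPM at 24 h. In clone 3 it stood at 421, 451 and 441 CPM at 0 h and at 144, 145 and 146 CPM at 24 h. The groups did not overlap in either clone. Clone 3 began far above clone 1, and its 24 h level came close to where clone 1 had started. The log2 fold change was -0.27 ± 0.04 in clone 1 (SE, n = 3 per group, adjusted p = 9.97e-06) and -1.60 ± 0.05 in clone 3 (adjusted p = 9.83e-12), and the difference between them was 1.31 (adjusted p = 4.21e-14). With the step term the clone 3 value was -1.62. ERN1 changed by 0.77 and -0.05 in the shXBP1 clones 1 and 18. ERN1 spans chr17:64039080-64130819 on the minus strand (GRCh38, GENCODE).

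XBP1, the transcript that IRE1 cuts, moved little. It stood at 184, 178 and 175 CPM at 0 h and at 190, 196 and 192 CPM at 24 h in clone 1, a log2 change of 0.10 (adjusted p = 0.0202). In clone 3 it stood at 245, 205 and 200 CPM at 0 h and at 195, 200 and 199 CPM at 24 h, a log2 change of -0.14 that did not pass the test (adjusted p = 0.0814). The gene counts do not separate the cut from the uncut XBP1 transcript. In the shXBP1 clones 1 and 18 the same gene changed by -1.90 and -1.45.

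IRF4 fell in both clones. It stood at 1362, 1270 and 1269 CPM at 0 h and at 1006, 968 and 989 CPM at 24 h in clone 1, and at 1436, 1447 and 1384 CPM at 0 h and at 929, 1034 and 1007 CPM at 24 h in clone 3. No 24 h library reached a 0 h library of its clone. The log2 fold change was -0.40 ± 0.04 in clone 1 (adjusted p = 9.18e-08) and -0.53 ± 0.05 in clone 3 (adjusted p = 1.17e-06), and their difference of 0.10 did not pass the test (adjusted p = 0.227). With the step term the clone 3 value was -0.62 and the difference of 0.20 passed (adjusted p = 0.0448). IRF4 changed by 0.15 and -0.01 in the shXBP1 clones, and the mean shIRE1 response minus the mean shXBP1 response was -0.55 (adjusted p = 9.94e-10).

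**Figure D1:**
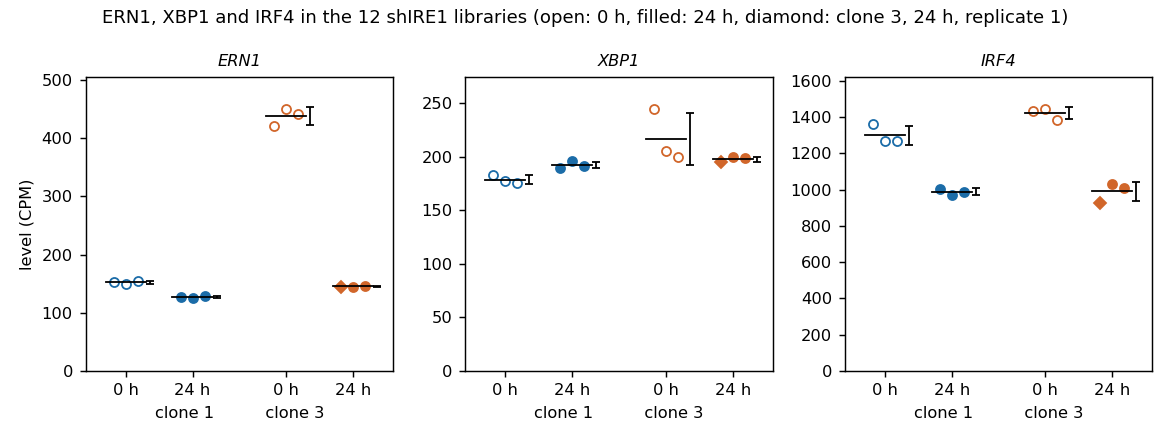
Levels of ERN1, XBP1 and IRF4 in CPM (y axis, from 0) in the 12 libraries, grouped by clone and time (x axis); points are libraries, lines are group means and bars are ± 1 SD of 3 replicates. ERN1 fell from 421 to 451 CPM to 144 to 146 CPM in clone 3 and by much less in clone 1, while IRF4 fell to a like level in both clones.

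Within the first day more genes passed the test in clone 1 than in clone 3. In clone 1, 10524 of 17154 genes tested passed the test (61.4% of all genes, 32.4% higher and 29% lower), and 2078 of them changed at least 2-fold, 1292 upwards and 786 downwards. In clone 3, 7947 of 17204 genes passed (46.2%, 22.8% higher and 23.3% lower), with 700 higher and 618 lower by at least 2-fold. With the step term clone 3 kept 4521 calls (26.3%). The median log2 change over all genes was 0.04 in clone 1 and 0.03 in clone 3.

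Of the 16795 genes tested in both clones, 2451 rose in both (14.6%) and 2659 fell in both (15.8%). A change of at least 2-fold in both clones was found for 294 of those that rose and 346 of those that fell. The shared risers had median log2 changes of 0.65 in clone 1 and 0.56 in clone 3, and the shared fallers of -0.54 in each clone. In 4708 of the 5110 genes that changed the same way, no 24 h library overlapped a 0 h library in either clone. These genes were chosen by tests on the same libraries, so this separation follows in part from the choice. The share over all genes is not given here. With the step term 1384 genes rose (8.24%) and 2016 fell (12%) in both clones, and 1326 and 1948 of these were among the shared genes of the main test.

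A test of the difference between the clones called 6178 of 17871 genes (34.6%; 4258 with the step term). A gene was counted as changed in 1 clone only where it passed in that clone, did not pass in the other, and passed the test of the difference. By this rule 2392 genes changed in clone 1 only (14.2%), 1291 upwards and 1101 downwards, of which 375 by at least 2-fold. In clone 3 only, 1090 genes changed (6.49%), 574 upwards and 516 downwards, of which 153 by at least 2-fold. With the step term these counts were 2313 and 459 (2.73% for clone 3 only), of which 1378 and 396 were in the same class as before. A further 816 genes passed in both clones in opposite directions (4.86%), and 371 did so with the step term. The changes of the clones had a Pearson correlation of 0.56 across the 16795 genes (Spearman 0.52), which are not independent replicates.

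**Figure D2:**
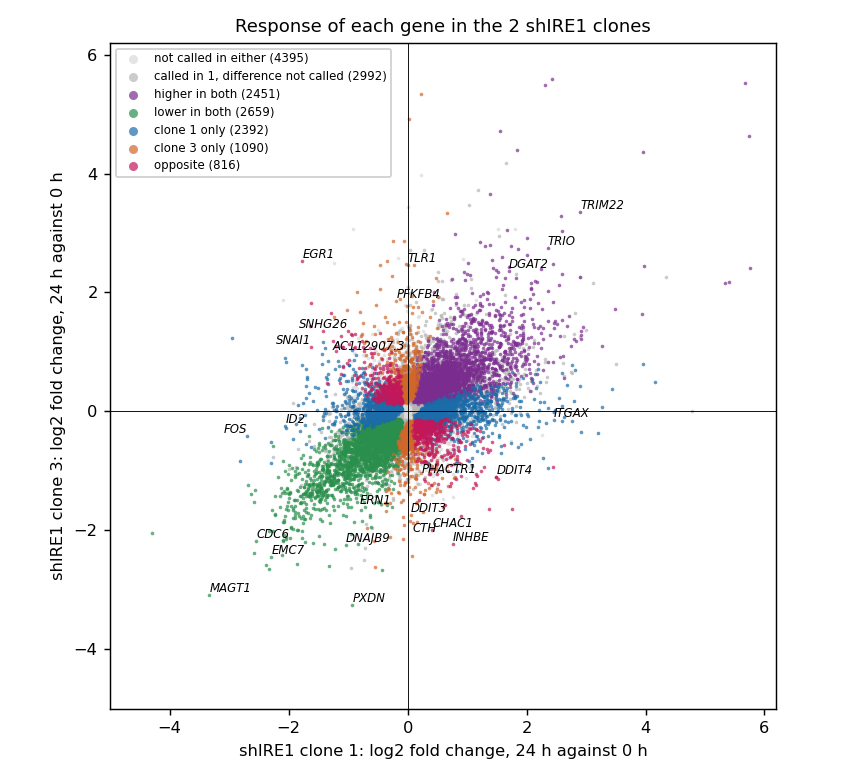
Log2 fold change at 24 h in clone 1 (x axis) against that in clone 3 (y axis) for the 16795 genes tested in both, of which 2 lie outside the axes; each point is a gene, coloured by its class. The replication gene CDC6 and the oligosaccharyltransferase gene MAGT1 lie far down the lower left, TRIO and DGAT2 in the upper right, and EGR1 and INHBE in the quadrants of opposite change.

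Of the 12 largest falls shared by the clones, several were of genes that act in copying or separating chromosomes. CDC6, which loads the replicative helicase onto origins, stood at 285, 288 and 268 CPM at 0 h and at 50.2, 48.0 and 46.1 CPM at 24 h in clone 1, and at 188, 193 and 185 CPM at 0 h and at 42.0, 41.9 and 42.1 CPM at 24 h in clone 3. Its log2 changes were -2.55 ± 0.05 and -2.17 ± 0.06 (adjusted p = 4.5e-18 and 2.72e-12), and in the shXBP1 clones 1 and 18 they were -0.70 and -0.44. DTL, which marks the licensing factor CDT1 for destruction, fell from 202, 199 and 189 CPM to 38.5, 38.6 and 39.9 CPM in clone 1 and from 159, 164 and 155 CPM to 39.9, 40.4 and 39.3 CPM in clone 3. DCK, the kinase that salvages deoxynucleosides, fell from 61.8, 56.5 and 50.5 CPM to 10.4, 8.61 and 9.06 CPM in clone 1 and from 47.4, 41.2 and 42.9 CPM to 10.2, 7.06 and 8.43 CPM in clone 3. For all of these the 24 h libraries lay far below every 0 h library. DSCC1, which helps load the sliding clamp PCNA, changed by -2.38 and -2.58, AUNIP by -2.33 and -2.65, and the kinetochore gene SPC25 by -2.10 and -2.17.

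Other large shared falls were of genes with other known roles. MAGT1, a subunit of the oligosaccharyltransferase that glycosylates proteins in the ER, fell furthest of the named genes in clone 3 but for PXDN: it stood at 167, 173 and 159 CPM at 0 h and at 17.7, 15.8 and 16 CPM at 24 h in clone 1, and at 136, 138 and 130 CPM at 0 h and at 16.8, 15.5 and 15.3 CPM at 24 h in clone 3. Its log2 changes were -3.34 ± 0.07 (adjusted p = 1.61e-17) and -3.09 ± 0.07 (adjusted p = 4.36e-13), and it changed by -0.38 and -0.31 in the shXBP1 clones. EMC7, a subunit of the complex that inserts proteins into the ER membrane, fell from 80.5, 80.6 and 77.6 CPM to 15.7, 18.0 and 15.2 CPM in clone 1 and from 88.2, 78.6 and 78.1 CPM to 15.8, 13.8 and 15.8 CPM in clone 3, against changes of -0.08 and -0.12 in the shXBP1 clones. DHRS2, a dehydrogenase, changed by -4.30 in clone 1 and -2.04 in clone 3, and by -2.54 and -0.25 in the shXBP1 clones. PXDN, a peroxidase of the extracellular matrix, changed by -0.93 and -3.25, and by 0.16 and -0.13 in the shXBP1 clones. In clone 1 PXDN was low, with group means of 1.30 CPM at 0 h and 0.67 CPM at 24 h. HSP90AA4P is a pseudogene of an HSP90 gene that also fell, so its reads cannot be told apart with certainty. C2orf48 changed by -2.05 and -2.14.

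The largest shared rises were more mixed in function. AC008014.1 and AC008035.1, long non-coding RNAs that overlap on the plus strand of chromosome 12 (chr12:46383433-46876784 and chr12:46537502-46652550, GRCh38), went from near 0 to a clear level. AC008014.1 stood at 0.268, 0.274 and 0.425 CPM at 0 h and at 18.0, 17.5 and 17.4 CPM at 24 h in clone 1, and at 0.942, 0.616 and 0.585 CPM at 0 h and at 18.5, 16.7 and 18.3 CPM at 24 h in clone 3. The log2 changes were 5.75 ± 0.15 and 4.62 ± 0.14 for AC008014.1 and 5.68 ± 0.21 and 5.53 ± 0.22 for AC008035.1. Reads in the shared stretch could belong to either. In the shXBP1 clones 1 and 18 AC008014.1 changed by 0.30 and -0.34 and AC008035.1 by 1.63 and 0.06. TRIO, an exchange factor that activates small GTPases, rose from 81.4, 78.8 and 80.2 CPM to 440, 376 and 420 CPM in clone 1 and from 56.5, 82.2 and 82.9 CPM to 467, 531 and 505 CPM in clone 3, log2 changes of 2.36 ± 0.05 and 2.75 ± 0.11. SLC27A1, a fatty acid transporter, changed by 2.60 and 2.31, the transcription factor OSR2 by 2.58 and 3.29, and TTC28 by 1.96 and 1.88.

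DGAT2, the enzyme of the last step of triglyceride synthesis and a transcript reported to be cut by IRE1, rose in both clones. It stood at 15.5, 16.8 and 14.6 CPM at 0 h and at 50.8, 48.7 and 53.7 CPM at 24 h in clone 1, and at 10.1, 10.6 and 9.94 CPM at 0 h and at 49.6, 53.8 and 54.2 CPM at 24 h in clone 3. The log2 changes were 1.70 ± 0.06 and 2.36 ± 0.07 (adjusted p = 2.32e-14 and 9.83e-12), and the rise was larger in clone 3 (adjusted p of the difference 2.18e-06). In the shXBP1 clones DGAT2 changed by -1.01 and -0.72, and the mean shIRE1 response minus the mean shXBP1 response was 2.88. The remaining shared rises were SARDH, a mitochondrial dehydrogenase of sarcosine (2.91 and 1.28), LINC00954 (2.48 and 1.52), CCDC141 (2.0 and 2.63), AC097376.2 (1.63 and 2.25) and the scaffold gene DLG4 (1.49 and 2.26). In the shXBP1 clones SARDH changed by 0.98 and -0.15 and LINC00954 by 1.10 and 0.08. There CCDC141 changed by 0.56 and 0.36, AC097376.2 by 0.18 and 0.40 and DLG4 by 0.08 and 0.47. All 24 genes stayed in their class with the step term.

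**Figure D3:**
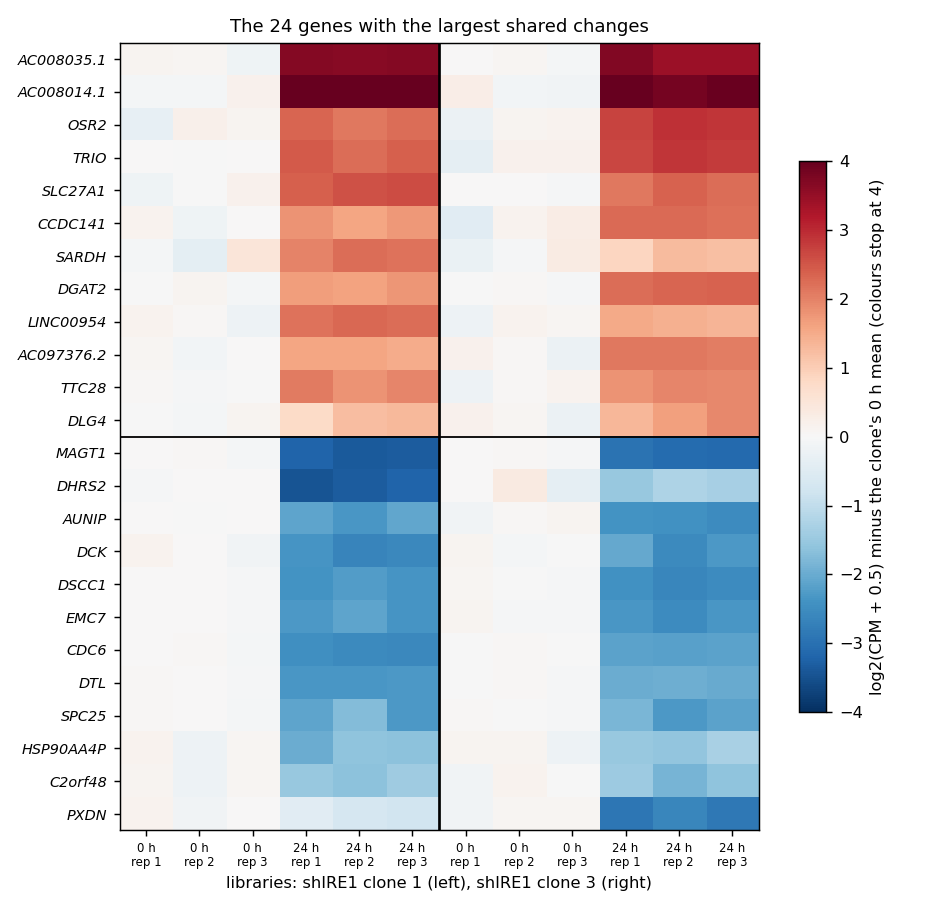
Change from the clone's own 0 h mean, as log2(CPM + 0.5), for the 12 largest rises (upper rows) and the 12 largest falls (lower rows) shared by the clones; columns are the 12 libraries and colours stop at 4. The 24 h columns are red in every upper row and blue in every lower row, in each replicate of both clones.

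Genes were also grouped into lists by function. The members were written down with earlier results of these data known, so the counts describe the lists and are no independent evidence of a direction. Each count is to be read beside the shares over all genes. These were 32.4% higher and 29% lower in clone 1, and 22.8% higher and 23.3% lower in clone 3. Most genes named from a list are its largest changes or those called differently in the clones. Of those named below, MCM2, PCNA, TYMS, SAMHD1, E2F5, E2F8, CCND2, CCND3, CDK4, CDK6, PLK1, BRCA1, TET2, ZMAT3, MDM2, BAX, EDEM1, HSP90B1, ATF4, PRDM1, SDC1, OAS1, ISG15, IFIT1, POLD1, CHTF18, CD3E, CD8A and TRAC were chosen after their values were seen. Among the 49 genes of replication licensing and the fork, all 49 fell in clone 1 and 46 in clone 3 (46 in both clones, 44 with the step term), with median log2 changes of -1.37 and -1.06. POLD1, POLD2 and CHTF18 did not pass in clone 3. The helicase gene MCM10 stood at 220, 226 and 208 CPM at 0 h and at 44.8, 43.3 and 46.2 CPM at 24 h in clone 1, and at 128, 145 and 134 CPM and 43.2, 43.0 and 43.7 CPM in clone 3. The sliding clamp gene PCNA changed by -1.56 and -1.05, and the helicase subunit MCM2 by -1.34 and -0.84. Over the same list the shXBP1 clones had medians of -0.19 and -0.06. A fall in a bulk sample can come from fewer cells in a phase or from less of the transcript in each cell, and the libraries cannot tell these apart.

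Genes that supply deoxynucleotides fell with them. Of 12 listed, 9 fell in clone 1 and 8 in clone 3, the same 8 in both, with medians of -1.28 and -0.99. RRM2, the regulated subunit of ribonucleotide reductase, fell from 417, 440 and 392 CPM to 95.1, 95.1 and 91.5 CPM in clone 1 and from 294, 271 and 245 CPM to 102, 81.4 and 83.7 CPM in clone 3. RRM1 changed by -1.64 and -1.40, TYMS, the thymidylate synthase, by -1.32 and -1.01, and TK1 by -1.44 and -0.97. SAMHD1, which breaks deoxynucleotides down, rose in both clones by 0.11 and 0.40.

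Of the 25 G1/S cyclins, kinases and E2F factors, 18 fell in clone 1 and 16 in clone 3 (15 in both, 14 with the step term), with medians of -0.70 and -0.45. E2F1, an activator of S-phase genes, stood at 60.4, 60.2 and 63.1 CPM at 0 h and at 20.6, 22.5 and 23.2 CPM at 24 h in clone 1, and at 69.7, 62.0 and 62.7 CPM and 23.8, 24.8 and 25.0 CPM in clone 3. Its log2 changes of -1.47 and -1.41 did not differ by the test (adjusted p = 0.47). The repressor genes E2F7 and E2F8, which E2F1 itself drives, changed by -2.09 and -1.86 and by -1.18 and -1.27. MYBL2 changed by -1.89 and -1.07. CDK4, CDK6 and CCND3 did not pass in either clone, and CCND2, the D-type cyclin with the higher level, changed by -0.45 and -0.40. E2F5 rose, by 0.65 and 1.01, and the pocket protein gene RBL2 rose in clone 1 only, by 0.79 against -0.03.

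All 58 genes of mitosis and G2/M fell in clone 1, and 57 of them in clone 3 (58 with the step term), with medians of -1.52 and -1.23. CDK1, the kinase that starts mitosis, stood at 152, 143 and 139 CPM at 0 h and at 39.2, 38.1 and 32.7 CPM at 24 h in clone 1, and at 147, 140 and 129 CPM and 33.7, 32.2 and 29.4 CPM in clone 3, log2 changes of -1.98 ± 0.06 and -2.14 ± 0.08. The spindle gene PRC1 changed by -1.78 and -1.79, the kinesin KIF4A by -1.89 and -1.60, and the cytokinesis gene ANLN by -2.0 and -1.67. The mitotic kinase PLK1 fell more in clone 1, by -1.74 against -0.88 (adjusted p of the difference 2.21e-07). The list's medians in the shXBP1 clones were -0.23 and 0.03.

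Of 28 genes of homologous recombination and the Fanconi pathway, 27 fell in both clones (25 with the step term), with medians of -1.44 and -1.26. EXO1, a nuclease that resects broken ends, stood at 130, 121 and 118 CPM at 0 h and at 30.8, 28.9 and 30.3 CPM at 24 h in clone 1, and at 83.7, 92.6 and 88.2 CPM and 27.5, 29.4 and 27.7 CPM in clone 3, log2 changes of -2.04 and -1.65. XRCC2 changed by -2.06 and -1.76, and BRCA1 by -1.61 and -1.33. Among 20 genes that copy chromatin and DNA methylation, 16 fell in clone 1 and 15 in clone 3 (14 in both), with medians of -1.17 and -0.67. UHRF1, which guides maintenance methylation, changed by -2.58 and -1.53, and MIS18A, needed to renew centromeric chromatin, by -2.07 and -2.07. TET2, a demethylase, rose by 0.41 and 0.37.

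The promoters of these genes are shown because the genes moved together. E2F factors bind TTTGGCGC, TTTCCCGC, TTTGCCGC and TTTCGCGC, the cell-cycle homology region (CHR) of late cell-cycle genes reads TTTGAA, and the core of the interferon response element reads GAAANNGAA. Each was searched on both strands from 250 bases before to 50 bases after the start in RefSeq, with the kinds of motif counted separately and overlaps allowed. An E2F match stood in 5.37% of the promoters of genes tested in both clones (10678 promoters), in 9.28% of those that fell in both, and in 19.66% of those that fell at least 2-fold in both (234 promoters). It stood in 45% of the 40 promoters of the replication list. A CHR match stood in 9.86% of all tested promoters, in 25.64% of those that fell at least 2-fold, and in 67.35% of the 49 promoters of the mitosis list. Of all 27305 promoters in the reference, 3.33% held an E2F match, 15.43% a CHR match and 8.29% a GAAANNGAA match. Promoters of genes that rose at least 2-fold in both held E2F in 2.11% and CHR in 10.53%. The sequences below run 5′ to 3′ from 150 bases before to 30 bases after the start (GRCh38.p14, RefSeq), with the matches in capitals, for the 4 genes of the largest shared falls that hold an E2F or CHR match and for 2 interferon-stimulated genes described further on.
DCK (chr4:70993499-70993678, plus strand): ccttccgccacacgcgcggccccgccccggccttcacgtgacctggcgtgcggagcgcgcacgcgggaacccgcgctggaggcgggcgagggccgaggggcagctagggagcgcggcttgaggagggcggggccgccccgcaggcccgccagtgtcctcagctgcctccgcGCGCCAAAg
CDC6 (chr17:40287729-40287908, plus strand): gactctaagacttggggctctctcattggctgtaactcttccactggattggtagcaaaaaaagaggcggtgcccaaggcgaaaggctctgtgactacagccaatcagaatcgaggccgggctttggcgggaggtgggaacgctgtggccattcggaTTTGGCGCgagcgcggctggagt
DTL (chr1:212035598-212035777, plus strand): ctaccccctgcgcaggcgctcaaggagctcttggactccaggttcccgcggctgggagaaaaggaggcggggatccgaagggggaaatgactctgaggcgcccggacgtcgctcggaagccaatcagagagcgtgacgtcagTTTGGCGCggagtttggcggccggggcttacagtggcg
SPC25 (chr2:168890401-168890580, minus strand): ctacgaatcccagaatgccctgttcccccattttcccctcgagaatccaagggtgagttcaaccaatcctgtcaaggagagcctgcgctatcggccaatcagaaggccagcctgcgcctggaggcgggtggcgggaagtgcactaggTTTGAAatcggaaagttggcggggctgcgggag
IFI6 (chr1:27672163-27672342, minus strand): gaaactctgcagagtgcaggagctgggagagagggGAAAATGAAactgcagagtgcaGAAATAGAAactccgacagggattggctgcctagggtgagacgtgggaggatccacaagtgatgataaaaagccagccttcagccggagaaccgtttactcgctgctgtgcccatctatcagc
IFITM1 (chr11:313890-314069, plus strand): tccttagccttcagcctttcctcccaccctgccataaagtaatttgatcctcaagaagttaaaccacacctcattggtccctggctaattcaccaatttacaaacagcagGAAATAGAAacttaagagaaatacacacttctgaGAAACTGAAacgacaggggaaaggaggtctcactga

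A match is a run of letters and not a bound site. MAGT1, AUNIP, EMC7, DHRS2 and PXDN, also among the 12 largest shared falls, hold none of the 3 motifs in the window searched. DSCC1, HSP90AA4P and C2orf48, the rest of these falls, had no promoter in the reference and were not searched.

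Genes that stop the cycle, and p53 targets, were divided. Of 26 tested, 13 rose and 3 fell in clone 1, and 14 rose and 8 fell in clone 3, with 9 higher in both clones, also with the step term. CDKN1A, the inhibitor p21, stood at 417, 430 and 443 CPM at 0 h and at 621, 689 and 715 CPM at 24 h in clone 1, and at 377, 325 and 345 CPM and 668, 793 and 808 CPM in clone 3. Its log2 changes of 0.65 ± 0.05 and 1.11 ± 0.08 were larger in clone 3 (adjusted p of the difference 0.000286), and it changed by -0.24 and -0.23 in the shXBP1 clones. SESN1 changed by 0.78 in each clone, TP53I3 by 1.64 and 1.02, and ZMAT3 by 0.60 and 0.78. MDM2, itself a p53 target, fell by 0.36 and 0.42 on the log2 scale. CDKN1B, the inhibitor p27, fell in clone 3 only (0.10 against -0.62). BTG2, an antiproliferative gene, moved in opposite directions, from 119 to 285 CPM in clone 1 and from 411 to 301 CPM in clone 3 (group means).

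Of the 14 BCL2 family genes tested, 3 rose and 3 fell in both clones (2 and 2 with the step term), beside 14.6% and 15.8% of all genes. PMAIP1, the killer protein NOXA, changed by -0.87 and -0.88. MCL1, a survival gene of plasma cells, changed by -0.20 and -0.68, from 1977 to 1720 CPM and from 2491 to 1564 CPM. BAX rose by 0.23 and 0.61. BMF rose in clone 1 only, from 5.78, 7.61 and 7.39 CPM to 19.3, 18.7 and 21.8 CPM, while clone 3 held 21.1, 22.7 and 23.5 CPM at 0 h and 19.5, 23.7 and 23.7 CPM at 24 h. BCL2 moved in opposite directions (0.28 and -0.50).

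Most ER genes listed as XBP1s targets fell in both clones. Of 48 ER genes listed as XBP1s targets, 39 fell in clone 1 and 44 in clone 3, 37 of them in both (35 with the step term), with medians of -0.46 and -0.65, and of -0.28 and -0.43 in the shXBP1 clones. DNAJB9, an ER co-chaperone, stood at 40.2, 40.7 and 40.6 CPM at 0 h and at 21.3, 19.6 and 18.2 CPM at 24 h in clone 1, and at 89.0, 73.0 and 76.4 CPM and 18.6, 15.5 and 16.5 CPM in clone 3. Its fall was larger in clone 3 (-1.04 against -2.25, adjusted p of the difference 6.07e-09), and both clones ended near the same level. EDEM1, which hands misfolded glycoproteins to degradation, went from 261 to 207 CPM in clone 1 and from 751 to 252 CPM in clone 3 (group means; log2 changes -0.34 and -1.58). SSR1, a subunit of the translocon-associated complex, changed by -1.30 and -1.40, SSR2 by -1.07 and -1.47, and EDEM3 by -1.27 and -1.40. The shXBP1 clones changed DNAJB9 by -0.95 and -1.42 and SSR1 by -0.97 and -0.77.

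Of the 12 transcripts reported to be cut by IRE1, 8 rose and 2 fell in clone 1, and 4 rose and 4 fell in clone 3, with medians of 0.51 and 0.23. BCAM rose with DGAT2, from 0.153, 0.183 and 0.131 CPM to 0.704, 0.635 and 0.781 CPM in clone 1 and from 0.275, 0.132 and 0.292 CPM to 1.05, 1.01 and 1.27 CPM in clone 3, which are few counts. BLOC1S1, the transcript most often used to read this activity, changed by 0.25 in clone 1 and by -0.29 in clone 3. HGSNAT changed by 0.58 and -0.76. CCT3, a subunit of the cytosolic chaperonin, fell by 1.35 and 0.90 on the log2 scale.

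ER chaperones and ATF6 targets fell in both clones, with the lower median in clone 1. Of 18 tested, 16 fell in clone 1 and 15 in clone 3 (14 in both, 12 with the step term), with medians of -0.81 and -0.43. HSPA5, the chaperone BiP, stood at 1748, 1787 and 1763 CPM at 0 h and at 720, 735 and 711 CPM at 24 h in clone 1, and at 753, 787 and 816 CPM and 627, 626 and 622 CPM in clone 3. The log2 changes were -1.29 ± 0.03 and -0.34 ± 0.05 (adjusted p of the difference 7.65e-13). CALR, the lectin chaperone calreticulin, fell in clone 1 only, from 2188 to 1057 CPM, while clone 3 held 1050 and 1004 CPM (group means). HYOU1 changed by -1.69 and -1.09, and HSP90B1 by -0.85 and -0.71. In clone 3 the 0 h level of HSPA5 and CALR was already about that which clone 1 reached at 24 h.

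For the ATF4 arm of the stress response the lower median was that of clone 3. Of 30 tested, 16 fell in clone 1 and 26 in clone 3, 16 of them in both, with medians of -0.21 and -0.85 (-0.99 with the step term). ATF4, the transcription factor itself, changed by -0.33 and -0.87, ATF3 by -1.0 and -1.60, CEBPG by -0.70 and -1.30, and PSAT1, of serine synthesis, by -0.49 and -1.20. SESN2 and TRIB3 fell in clone 3 only, by 1.14 and 0.94 on the log2 scale. Of 20 aminoacyl tRNA synthetases, which include many ATF4 targets, 11 fell in clone 1 and 14 in clone 3 (9 in both), with medians of -0.17 and -0.33. GARS changed by -0.53 and -1.06, and WARS by -0.30 and -0.89.

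Among 30 genes of plasma cell identity, 14 fell and 8 rose in clone 1, and 19 fell and 4 rose in clone 3, with medians of -0.11 and -0.39. PRDM1, the regulator BLIMP1, changed by -0.71 and -0.37, SDC1, the surface marker CD138, by -0.48 and -0.39, and CXCR4 by -0.87 and -0.71. JCHAIN, the joining chain of immunoglobulin A and M, stood at 3035, 2984 and 2747 CPM at 0 h and at 2256, 2211 and 2080 CPM at 24 h in clone 1, and at 4806, 4012 and 4014 CPM and 2043, 1657 and 1695 CPM in clone 3. Of 7 immunoglobulin chain genes, whose reads can be shared between near-identical copies, 4 fell in clone 1 and 2 in clone 3, with medians of -0.43 and -0.17, and IGKC changed by -0.19 and -0.65. Among 23 genes of B-cell identity, 15 rose and 6 fell in clone 1, and 14 rose and 5 fell in clone 3. Of these, 12 rose in both clones, 2 fell in both and 3 moved in opposite directions. The medians were 0.32 and 0.26 (0.20 in clone 3 with the step term). CR2 changed by 0.96 and 1.21, ID3 by 0.95 and 1.19, and the kinase BTK by 0.84 and 0.54. PAX5 was too low to test.

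Some interferon-stimulated genes rose in both clones from low levels. Of 33 tested, 22 rose and 1 fell in clone 1, and 16 rose and 4 fell in clone 3 (12 higher in both, 11 with the step term, beside 14.6% of all genes), with medians of 0.56 and 0.51 against 0.06 and 0.01 in the shXBP1 clones. TRIM22, an antiviral ubiquitin ligase, stood at 0.115, 0.183 and 0.131 CPM at 0 h and at 0.967, 0.953 and 1.44 CPM at 24 h in clone 1, and at 0.118, 0.0440 and 0.110 CPM and 0.860, 0.888 and 1.21 CPM in clone 3. IFI6 changed by 1.97 and 0.79, IFITM1 by 1.14 and 1.39, MX2 by 1.42 and 2.55, and OAS1, the only one of these above 3 CPM, by 1.00 and 0.83. ISG15 rose in clone 1 by 0.81 and changed by 0.61 in clone 3 (adjusted p = 0.0529), and IFIT1 passed in neither. Of the 33 promoters of this list in RefSeq, 63.64% held a GAAANNGAA match, against 6.67% of those of all genes tested in both clones. Of 17 genes of MHC class I and peptide loading, 10 rose and 4 fell in clone 1, and 4 rose and 6 fell in clone 3, with medians of 0.24 and -0.07. NLRC5, the activator of class I genes, changed by 0.48 and 0.94.

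**Figure D4:**
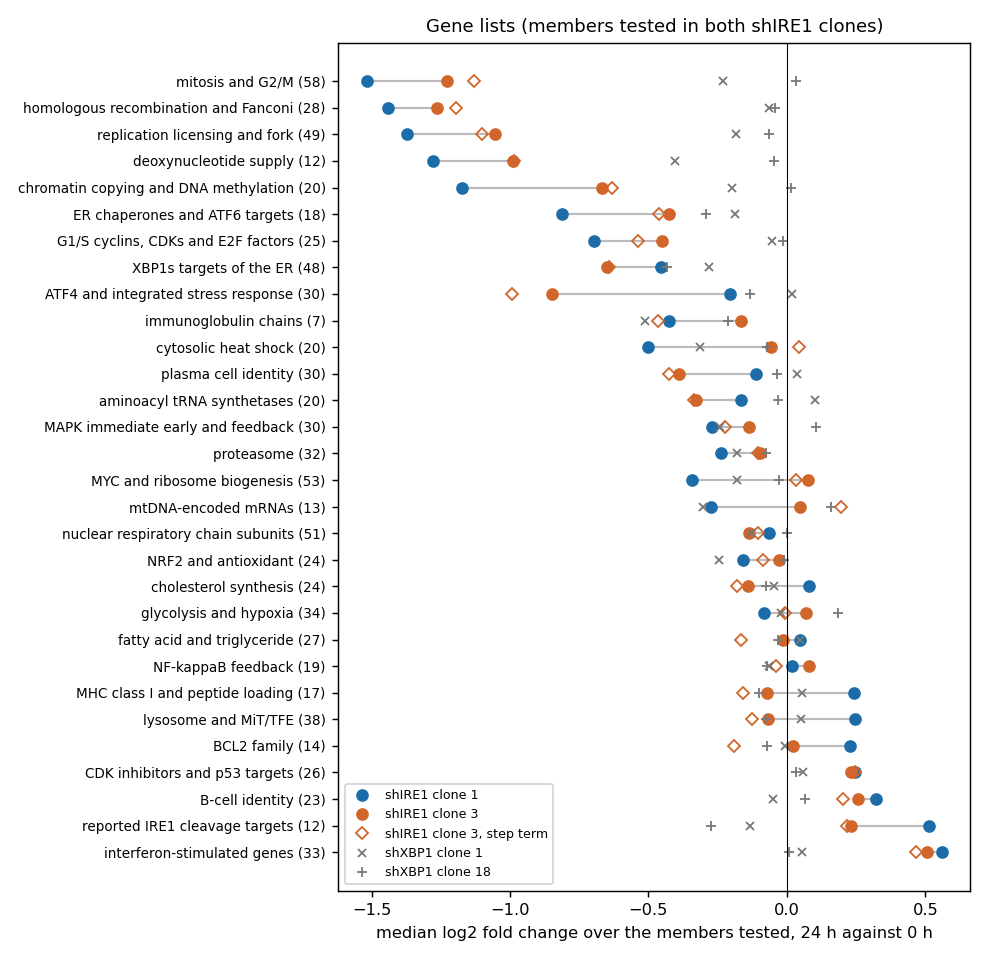
Median log2 fold change at 24 h (x axis) over the tested members of each of the 30 lists (rows, with the number of members), for the 2 shIRE1 clones, for clone 3 with the step term and for the 2 shXBP1 clones; the vertical line is 0. The 4 lists of DNA synthesis, recombination and mitosis lie between -1.52 and -0.99 in both shIRE1 clones, and the lowest list median of a shXBP1 clone is -0.51.

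Growth and protein quality lists had their lower medians in clone 1; the difference between the clones was tested for each gene and not for a list. Of 53 genes of MYC and ribosome biogenesis, 38 fell and 2 rose in clone 1, while 13 fell and 14 rose in clone 3 (6 fell in both with the step term), with medians of -0.34 and 0.08. MYC stood at 1723 CPM at 0 h and 1242 CPM at 24 h in clone 1, and at 1351 and 1434 CPM in clone 3 (group means; log2 changes -0.48 and 0.08). NCL changed by -0.92 and -0.28, NOLC1 by -0.90 and -0.22, and NOP58 by -0.87 and -0.63. Of 20 cytosolic heat shock genes, 14 fell in clone 1 and 6 in clone 3, with medians of -0.50 and -0.06. HSP90AA1 fell in both, from 1742, 1745 and 1626 CPM to 384, 375 and 371 CPM in clone 1 and from 638, 687 and 678 CPM to 340, 303 and 294 CPM in clone 3. Of 32 proteasome genes, 24 fell in clone 1 and 11 in clone 3, with medians of -0.24 and -0.10 (-0.10 in clone 3 with the step term). Of 24 NRF2 and antioxidant genes, 15 fell in clone 1 and 9 in clone 3, with medians of -0.16 and -0.03. SLC7A11, the cystine transporter, changed by -0.34 and -1.29.

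Of the 13 transcripts encoded by mitochondrial DNA, 11 fell in clone 1 (median -0.28). In clone 3, 1 fell and 2 rose (median 0.05, and 0.19 with the step term). Of 51 nuclear subunits of the respiratory chain, 20 fell in each clone without the step term, and 10 rose in clone 1 and 0 in clone 3. The medians were -0.07 and -0.14 (-0.11 in clone 3 with the step term). Of 38 lysosome and MiT/TFE genes, 23 rose and 8 fell in clone 1, and 9 rose and 16 fell in clone 3. The medians were 0.25 and -0.07 (-0.13 in clone 3 with the step term). RRAGD, a Rag GTPase, fell in both by 0.86 and 1.46 on the log2 scale. For the lists that follow, the shares over all genes were 32.4% higher and 29% lower in clone 1, and 22.8% and 23.3% in clone 3. Of 24 cholesterol synthesis genes, 11 rose and 7 fell in clone 1, and 4 rose and 10 fell in clone 3 (medians 0.08 and -0.14). Of 27 genes of fatty acid and triglyceride metabolism, 9 rose and 9 fell in clone 1, and 10 rose and 7 fell in clone 3 (medians 0.05 and -0.02), with SCD, the stearoyl desaturase, lower in both by 0.58 and 0.74. Of 34 genes of glycolysis and hypoxia, 13 rose and 16 fell in clone 1, and 13 rose and 8 fell in clone 3 (medians -0.08 and 0.07). Of 19 genes of NF-κB feedback, 9 rose and 6 fell in clone 1, and 3 rose and 4 fell in clone 3 (medians 0.02 and 0.08), and NFKBIA, the inhibitor that NF-κB induces, fell by 1.21 and 0.48 on the log2 scale. CCL3, a chemokine, changed by -0.42 in clone 1 and by -2.67 in clone 3. Of 30 immediate early and feedback genes of the MAPK pathway, 4 rose and 18 fell in clone 1, and 8 rose and 11 fell in clone 3 (medians -0.27 and -0.14), and the phosphatase DUSP5 changed by -1.02 and -1.0.

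Genes that changed in 1 clone only mostly differed between the clones at the start and not at the end. FOS, an immediate early gene, stood at 8.26, 6.63 and 10.8 CPM at 0 h and at 1.14, 1.59 and 1.22 CPM at 24 h in clone 1, a log2 change of -2.70 ± 0.19. In clone 3 it stood at 1.73, 1.67 and 1.86 CPM at 0 h and at 1.48, 1.30 and 1.24 CPM at 24 h. ID2, an inhibitor of helix-loop-helix factors, fell in clone 1 from 20.1, 21.5 and 21.2 CPM to 4.54, 5.02 and 5.59 CPM, and clone 3 held 4.34 to 5.77 CPM throughout. The other way round, ITGAX, the integrin CD11c, rose in clone 1 from 0.727, 0.700 and 0.817 CPM to 3.34, 4.01 and 5.09 CPM, and clone 3 held 4.22 to 5.63 CPM. P2RX1, an ATP-gated channel, rose in clone 1 from 6.92, 5.17 and 5.59 CPM to 19.2, 22.7 and 23.2 CPM, and clone 3 held 25.9 to 30.8 CPM. In each of these genes clone 1 moved towards the 0 h level of clone 3, and its 24 h libraries overlapped that level for ID2 and ITGAX but not for FOS, which ended below it, or P2RX1, which ended below it too. LILRA2 (2.22) and HSPB7 (1.80) also rose in clone 1 only and the pseudogene TUBBP6 fell (-1.84). HSPB7 overlaps other annotation, so its reads are uncertain.

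In clone 3 only, DDIT3, the stress factor CHOP, fell from 89.6, 81.8 and 80.6 CPM to 26.1, 23.5 and 26.4 CPM (log2 change -1.74 ± 0.07), and clone 1 held 21.5 to 29.0 CPM throughout. CTH, the enzyme that makes cysteine from cystathionine, fell from 66.7, 70.1 and 65.0 CPM to 16.2, 19.1 and 19.8 CPM, and clone 1 held 11.3 to 13.4 CPM. LTF, lactoferrin, fell from 21.0, 21.4 and 21.2 CPM to 3.36, 4.27 and 4.16 CPM, and the ER-phagy receptor gene CCPG1 from 160, 149 and 140 CPM to 47.2, 37.9 and 40.9 CPM. HVCN1, a proton channel (-1.86), and CTNNA2 (-1.54) fell as well. TLR1, a receptor for bacterial lipopeptides, rose from 0.353, 0.440 and 0.621 CPM to 2.93, 2.57 and 2.54 CPM, and PFKFB4, a regulator of glycolysis, from 5.10, 5.42 and 6.36 CPM to 21.4, 22.1 and 18.2 CPM. PFKFB4 at 24 h stood above both groups of clone 1, whose libraries held 9.85 to 15 CPM.

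Most of the 8 named genes that moved in opposite directions came nearer to each other. INHBE still stood at 12.8 to 15.8 CPM in clone 1 and 27.5 to 32 CPM in clone 3 at 24 h, and PHACTR1 crossed, from 2.10 to 4.77 CPM in clone 1 and from 5.29 to 2.53 CPM in clone 3 (group means). EGR1, an immediate early transcription factor, fell in clone 1 from 111, 76.4 and 125 CPM to 29.9, 30.9 and 30.8 CPM and rose in clone 3 from 6.36, 5.28 and 5.74 CPM to 32.8, 35.3 and 32.2 CPM. Its log2 changes of -1.77 ± 0.12 and 2.52 ± 0.12 differed by -4.32 in the joint fit (adjusted p = 4.55e-14). DDIT4, an inhibitor of mTORC1, rose in clone 1 from 21.1, 21.8 and 24.5 CPM to 61.5, 66.6 and 62.5 CPM and fell in clone 3 from 182, 172 and 226 CPM to 87.6, 90.5 and 94.2 CPM. CHAC1, which degrades glutathione, rose from 5.93, 6.85 and 6.70 CPM to 7.80, 10.1 and 8.12 CPM in clone 1 and fell from 51.8, 44.3 and 49.6 CPM to 10.3, 11.9 and 14.2 CPM in clone 3. INHBE, a subunit of activin E, changed by 0.76 and -2.23 and PHACTR1 by 1.16 and -1.09, while SNAI1 changed by -1.62 and 1.08, AC112907.3 by -1.25 and 1.19 and the host gene SNHG26 by -1.01 and 1.36. All the genes named here for a change in 1 clone or in opposite directions stayed in their class with the step term.

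**Figure D5:**
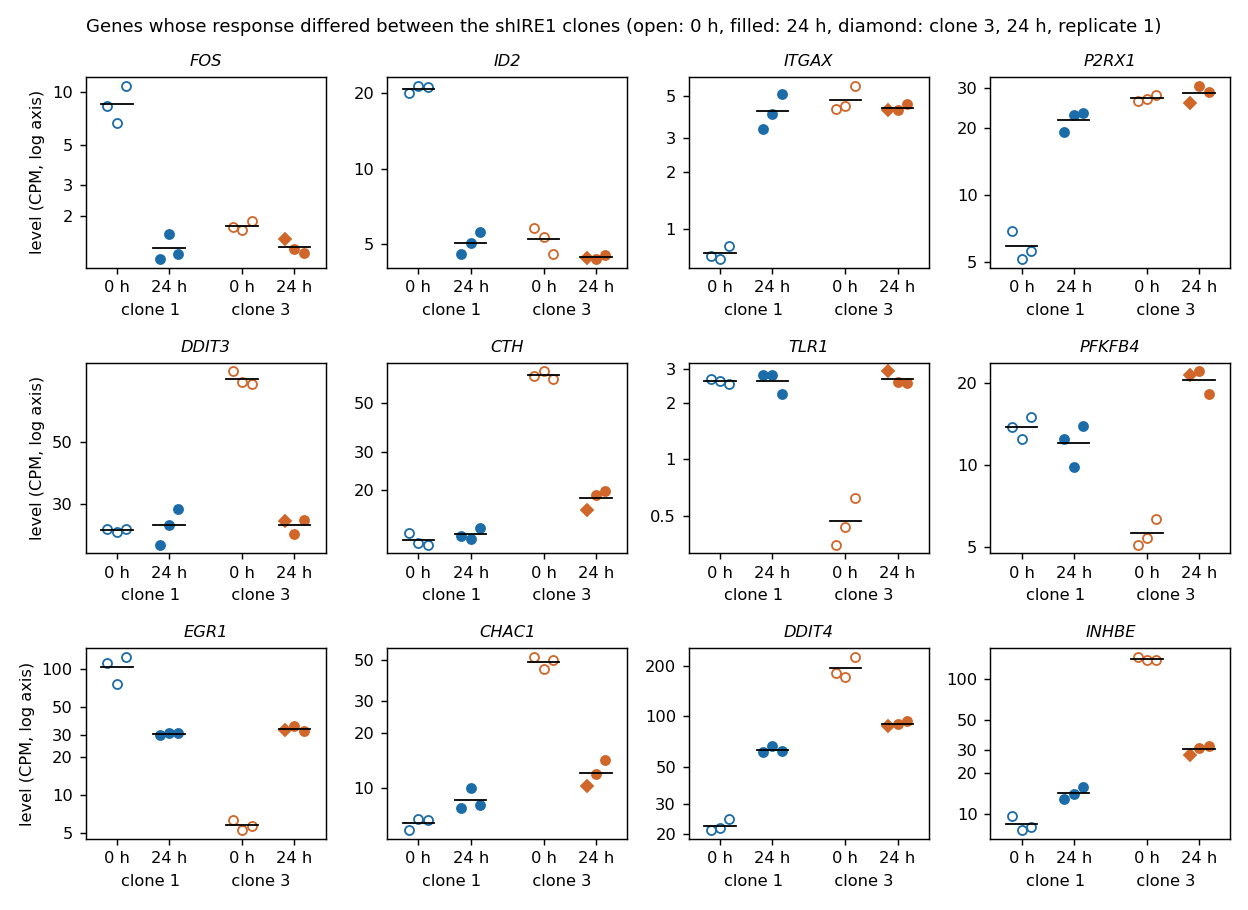
Levels in CPM (y axes, log scale) of 12 genes whose response differed between the clones, in the 12 libraries grouped by clone and time (x axis); points are libraries and lines are group means. In the upper row clone 1 moves towards the level of clone 3, in the middle row clone 3 moves, and in the lower row both move towards each other, as EGR1 does from 76.4 to 125 CPM and from 5.28 to 6.36 CPM to about 30 CPM.

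This approach of the clones held for most genes of these classes. The median distance between the clones' mean log2 levels went from 0.43 at 0 h to 0.10 at 24 h over the genes changed in clone 1 only, from 0.35 to 0.12 over those changed in clone 3 only, and from 0.57 to 0.11 over those that moved in opposite directions. The clones were nearer at 24 h than at 0 h in 2132 of 2392, 884 of 1090 and 776 of 816 genes of these classes (89.1%, 81.1% and 95.1%), against 70.1% of all genes. The classes were set from the same libraries, so these values describe them and test nothing. Over 13432 genes the mean correlation of a library with the other clone was 0.980 to 0.983 at 0 h and 0.991 to 0.996 at 24 h. At 0 h 4 genes differed between the clones by at least 3 on the log2 scale without overlap (EGR1, INHBE, DDIT4 and TLR7).

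The shXBP1 clones, which share no library with the shIRE1 clones, were set beside these classes. A test of the mean shIRE1 response against the mean shXBP1 response called 6745 of 17875 genes (37.7%; 5124 with the step term). Of the genes that fell in both shIRE1 clones, 2323 of 2659 (87.36%) were called lower in this test, as were 343 of the 346 that fell at least 2-fold (99.13%). Of those that rose in both, 1872 of 2443 (76.63%) were called higher. The median change of the 346 genes was -1.49 and -1.33 in the shIRE1 clones and -0.18 and -0.03 in the shXBP1 clones. The classes were set from the shIRE1 libraries that also enter this test, so a share above the background follows in part from the choice.

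Genes that changed in shIRE1 clone 1 only mostly had the same sign of change in shXBP1 clone 1, and those of clone 3 only mostly had the opposite sign. Of the genes higher in shIRE1 clone 1 only, 91.09% had a change of the same sign in shXBP1 clone 1 and 49.57% in shXBP1 clone 18, and of those lower, 89.19% and 50.68%. Of the genes higher in shIRE1 clone 3 only, 18.01% and 54.37% had the same sign, and of those lower, 17.44% and 59.30%. Over all 16688 genes the sign in shIRE1 clone 1 was shared by 69.78% in shXBP1 clone 1 and 52.50% in clone 18, and the sign in shIRE1 clone 3 by 50.65% and 54.72%. The shares for shXBP1 clone 18 lay near those of all genes. FOS changed by -2.60 and 1.03 in the shXBP1 clones 1 and 18, ID2 by -1.37 and 0.73, ITGAX by 1.53 and -0.48, DDIT3 by 0.96 and -0.43, and EGR1 by -2.58 and 3.00. For EGR1 the pair of clones numbered 1 fell and the other pair rose. Across 16688 genes the changes of shIRE1 clone 1 had a Pearson correlation of 0.51 with those of shXBP1 clone 1 and 0.05 with those of shXBP1 clone 18, and the changes of shIRE1 clone 3 of 0.02 and 0.15, given as descriptions without a test.

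Of the 5 T and NK cell markers tested, 3 rose in both shIRE1 clones (2 with the step term). The list's median was 0.79 and 0.82 in these clones and 0.43 and 0.39 in the shXBP1 clones. Their sum went from 8.50 to 10.6 CPM at 0 h to 21.1 to 21.9 CPM at 24 h in clone 1 and from 11.6 to 12.5 CPM to 19 to 21.5 CPM in clone 3, and 3 of the 8 genes reached 1 CPM. CD3E, a chain of the T-cell receptor complex, rose from 5.53 to 15.2 CPM and from 8.02 to 14.3 CPM (group means), and CD8A from 2.24 to 3.89 CPM and from 2.18 to 3.88 CPM, while TRAC passed in neither clone. The part of other cells in any result was not tested.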

How the data were processed

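Poly(A) RNA libraries (TruSeq stranded) were sequenced from 1 end over 50 bases. The authors deposited gene counts, aligned with GSNAP per the submitters' processing notes, and a log2 CPM table. That table equals edgeR's log2 CPM with a prior count of 2 on the deposited counts. It was used only in the alternative with limma and not in the main tests. The notes name GRCh37, while the gene identifiers look like those of a GRCh38 annotation, and the use of strand in counting is not given in the sources used here. Coordinates are from GENCODE on GRCh38. Groups and replicate numbers came from the labels, and replicates were separate flasks.

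Counts were tested with edgeR 4.0.16 in R 4.3.3 (TMM, filterByExpr with a minimum count of 10 and a minimum total of 15, quasi-likelihood F test, Benjamini-Hochberg threshold 0.05). Each clone was fitted with its 12 libraries of all times. The difference between the shIRE1 clones was fitted on 24 libraries, and that between shIRE1 and shXBP1 on the 24 libraries of 0 and 24 h. The SE is the fold change divided by the root of F. On simulated data with 200 changed genes, edgeR recovered 157 for clone 1, 139 for clone 3 and 102 for the difference between them. Of the calls, 5.99%, 2.8% and 3.77% were false. For shIRE1 minus shXBP1, with the change put in 1 of 4 clones, 63 were recovered and 7.35% of calls were false. Far fewer genes were changed there than were called in the data, so scaling under so many changes was not tested. DESeq2 1.42.0 and limma 3.58.1, other scaling and filters, a replicate block and leaving out each replicate were alternatives. The term for the step in library numbers, and leaving out clone 3 24 h replicates 2 and 3, were alternatives chosen later, once the data had been seen.

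The genes named were ERN1, XBP1 and IRF4, the 12 largest shared rises and falls, 8 genes per clone for changes in 1 clone only and 4 per orientation for opposite changes (mean log2 CPM above 1, groups not overlapping for the first 2 kinds), and up to 5 members of each list with those called differently in the clones. Some genes that meet this rule are not reported here. The samples, lists and tests were chosen with earlier results of these data known.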

Additional observations from a re-analysis of the deposited data

Results flagged for a closer look

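The response at 24 h differed between the shIRE1 clones in 6178 genes and between the shIRE1 and shXBP1 clones in 6745 genes, each by a test of the difference itself in edgeR. The following values are the log2 fold change of clone 1 minus that of clone 3 in the joint fit, for the named genes that passed that test. The difference was 1.31 for ERN1 and 0.22 for XBP1.

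Among genes changed in clone 1 only, the difference was 2.59 for ITGAX, 2.18 for LILRA2, 1.79 for P2RX1 and 1.83 for HSPB7. It was -2.31 for FOS, -1.83 for ID2 and -1.97 for TUBBP6. Among genes changed in clone 3 only, it was 2.47 for LTF, 1.86 for CCPG1, 1.94 for CTH, 1.99 for HVCN1, 1.76 for DDIT3 and 1.66 for CTNNA2. It was -2.48 for TLR1 and -2.07 for PFKFB4.

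Among genes that moved in opposite directions, the difference was 2.96 for INHBE, 2.57 for DDIT4, 2.39 for CHAC1 and 2.23 for PHACTR1. It was -4.32 for EGR1, -2.72 for SNAI1, -2.47 for AC112907.3 and -2.39 for SNHG26. The part of the step in library numbers in these differences was not tested beyond the fit with its term.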

How the results depend on the processing

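A count was said to stay where it lay within a fixed fold of the main count, and a log2 fold change where its sign and call held. The fold was wide: 787 to 1410 genes in clone 3 only, against 1090, were said to stay. Of the alternatives fixed at the start, 204 values stayed by this rule and 1 moved. With shIRE1 clone 1 against shXBP1 clone 1 only, 4387 genes differed between the knockdowns. Of those added after the data were seen, 10 stayed and 9 moved. With the term for the step in library numbers, 4521 genes changed in clone 3, 3400 changed the same way in both clones, 371 in opposite directions and 459 in clone 3 only. Without clone 3 24 h replicates 2 and 3, these counts were 4222, 3205, 331 and 423, and 4095 genes differed between the clones. Both rest on 1 library at 24 h, which is assumed to vary like the other groups. Leaving out each replicate gave 9585 to 10030 genes in clone 1, 6445 to 8495 in clone 3, 4426 to 5121 the same way in both and 593 to 996 in opposite directions.

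Same-numbered replicates did not deviate together in every pair. The correlations were 0.29, 0.006 and 0.136 in clone 1 and 0.233, 0.04 and 0.179 in clone 3. Only replicate 1 of each clone correlated best with its own number. These mixed correlations do not settle whether same-numbered samples were paired. With the replicate block 10272 genes changed in clone 1 and 7436 in clone 3, 4806 the same way in both, and 5683 differed between the clones.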

Other observations

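The genes beside the long non-coding RNAs that rose most were looked up after their values were seen. AC025031.4, which overlaps the same stretch of chromosome 12, rose in both clones, by 1.37 in clone 1 and 1.62 in clone 3 on the log2 scale. The neighbouring amino acid transporter gene SLC38A1 fell in both, by 0.35 and 0.36 on the log2 scale, and SCAF11 by 0.42 and 0.30. SLC38A2 moved in opposite directions, by 0.28 and -0.22.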
